A study of Mus musculus with 12 samples.

Results

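The merged BATF regions examined here had a summit base in repeat-derived DNA, lay more than 2 kb from every annotated transcription start site and had no AP-1 consensus site near the summit. BATF is a basic leucine zipper (bZIP) transcription factor, and the regions come from ChIP-seq of Th9 and Th17 cells, which are helper T cells cultured from naive splenic CD4+ T cells of C57BL6/J mice under conditions that favour production of IL-9 or IL-17. The cells were taken on day 5 of culture, and the labels give the strain but no other genotype. Th9 libraries 1 and 2 and Th17 libraries 3 and 4 were made with an antibody to BATF, and the labels number 4 input and 4 IgG libraries in the same way. The 4 lists of peaks that used both controls were pooled, and peaks sharing at least 1 bp were merged into 5873 regions, each with the summit of its member peak of largest −log10 q. The rule kept 1228 of these regions (20.9%, exact 95% interval 19.9 to 22.0%). The summit base was soft-masked, meaning written in lower case as repeat sequence in the RefSeq GRCm38 genome file, in 1387 regions, 1342 of these were more than 2 kb from a start site, and 114 of the 1342 held TGASTCA (S is C or G) within 100 bp of the summit and were left out. The region nearest to the distance limit on the inside lay 2051 bp from the *Fam168a* start site, with a fold enrichment of 5.35, and the nearest on the outside lay 1991 bp from that of *Eif4ebp2*, with a fold enrichment of 5.08. The soft mask names no repeat class, so families were described from the sequence itself.

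BATF forms dimers with JUN proteins that bind AP-1 sites, and with IRF4 or IRF8 it binds composite sites in which a bZIP motif lies beside a short IRF motif. Much of the mouse genome derives from repeats, which include short and long interspersed elements, endogenous retroviruses and tandem arrays such as the major satellite of pericentromeric heterochromatin. Some interspersed repeats carry binding sites for transcription factors. Short fragments from repeats with many near-identical copies cannot be assigned to 1 copy, and arrays that are longer in the cell than in the assembly gather fragments from all their copies.

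The 22 regions that stood apart from the rest fell into 2 kinds, and their sequences are shown first because the results turn on them. In all, 21 of the 1228 members were called in 2 or more libraries. Of these, 12 were tandem satellite sequence and belonged to a family of 13 similar members, and 9 were dispersed over 6 chromosomes. The following 3 windows of 234 bases are centred on summits of the satellite family, 1 from each chromosome that held it, and show the word of 12 bases that was found in the window of every one of the 13 regions, in capitals on either strand. All windows are GRCm38 (mm10), plus strand, 5′ to 3′.
Satellite, chr9:3024344-3024577: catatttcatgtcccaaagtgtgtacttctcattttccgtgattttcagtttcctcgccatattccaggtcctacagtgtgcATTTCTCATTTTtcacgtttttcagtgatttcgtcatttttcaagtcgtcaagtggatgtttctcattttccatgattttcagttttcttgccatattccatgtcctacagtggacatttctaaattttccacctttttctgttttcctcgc
Satellite, chr2:98667015-98667248: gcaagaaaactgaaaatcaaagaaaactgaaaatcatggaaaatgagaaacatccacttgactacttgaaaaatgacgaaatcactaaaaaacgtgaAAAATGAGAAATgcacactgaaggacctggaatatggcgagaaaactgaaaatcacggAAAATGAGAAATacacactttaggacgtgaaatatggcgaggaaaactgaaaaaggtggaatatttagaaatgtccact
Satellite, chr14:19418688-19418921: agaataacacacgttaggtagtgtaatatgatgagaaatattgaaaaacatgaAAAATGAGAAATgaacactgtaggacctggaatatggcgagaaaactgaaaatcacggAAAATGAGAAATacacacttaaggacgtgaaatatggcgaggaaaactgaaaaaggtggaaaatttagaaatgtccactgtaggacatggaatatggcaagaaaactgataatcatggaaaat
The next windows, of 81 bases, are centred on the summits of 8 of the 9 dispersed recurring members and are named by the nearest gene. Capitals mark AP-1 arms, the pentamers TGACT or TGAGT on either strand, which can overlap.
Slc18b1, chr10:23811583-23811663: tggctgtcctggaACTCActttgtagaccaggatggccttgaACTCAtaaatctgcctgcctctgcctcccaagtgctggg
Med15, chr16:17694978-17695058: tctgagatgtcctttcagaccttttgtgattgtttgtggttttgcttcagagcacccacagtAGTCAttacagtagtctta
Gpr15, chr16:58715172-58715252: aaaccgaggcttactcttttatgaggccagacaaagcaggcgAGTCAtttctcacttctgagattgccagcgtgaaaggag
Mgat5, chr1:127345017-127345097: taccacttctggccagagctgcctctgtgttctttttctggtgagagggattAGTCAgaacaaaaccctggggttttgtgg
Trib2, chr12:15821251-15821331: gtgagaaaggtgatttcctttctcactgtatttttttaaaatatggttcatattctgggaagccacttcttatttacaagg
Gm19585, chr17:52076899-52076979: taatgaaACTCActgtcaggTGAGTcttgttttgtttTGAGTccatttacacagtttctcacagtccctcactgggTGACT
Vmn2r99, chr17:19266411-19266491: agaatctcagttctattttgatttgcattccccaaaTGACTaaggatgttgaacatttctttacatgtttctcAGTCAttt
1700123O12Rik, chr4:10610931-10611011: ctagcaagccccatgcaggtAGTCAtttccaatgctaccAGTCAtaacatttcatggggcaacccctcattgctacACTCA
The ninth, in the 3′ untranslated part of the last exon of *St8sia4*, is described without its sequence. No capital appears in the Trib2 window because its nearest arms began 53 and 67 bp to the right of the summit and 85 bp to the left. Distances of motifs are from the summit to the leftmost base on the plus strand.

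The satellite family formed a stack of 9 members on chromosome 9 from 3000960 to 3035452, a stack of 3 members on chromosome 14 from 19415730 to 19418879 and a single member on chromosome 2 from 98666921 to 98667224. All 13 lay between genes, and the nearest curated start site to the chromosome 9 stack was that of *Mir101c*. All 78 pairs of windows aligned over at least 80 bases, with a median identity of 89.2% (80 to 99.1%). Within 2000 bp to either side of the summit, the shift between 20 and 400 bases that matched the sequence best to itself was 234 bases at 9 of the 13 regions, which are the 9 on chromosome 9, with 55.6 to 77.0% of bases equal at that shift. On chromosome 14 the best shift was 351 bases, and on chromosome 2 it was 58 bases with 33.1% of bases equal. The best shift depended on the length searched. Within 300 bp to either side it was 234 bases at 5 of the 13 regions, and on chromosome 2 it was 251 bases with 66.9% of bases equal. Of the 13 regions, 11 and 13 were called in Th9 libraries 1 and 2, 12 in Th17 library 3 and 3 in Th17 library 4.

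Satellite regions had low fold enrichment and very large numbers of fragments. The fold enrichment was 1.12 to 3.71 over the 39 peaks of the family (median 1.91). It is the ratio of fragments to local background at the summit, with 1 added to each. From the fold enrichment and the −log10 p of a peak, the fragments at its summit and the background were recovered as described under processing. They were 19 to 37846 fragments (median 304) over a background of 5.15 to 25045 (median 170). The region on chromosome 2 had the largest −log10 q of all members, 1428 in Th9 library 2, at a fold enrichment of 1.57, and stood on about 37772 fragments over about 24101. Its fold enrichment was 1.51 in Th9 library 1 and 1.60 in Th17 library 3, and Th17 library 4 listed it against IgG only, at 1.36. The 3 libraries that called it against both controls thus had close values.

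Among the satellite regions, 3 on chromosome 9 were called in all 4 libraries. The first, from 3007596 to 3007981, had a fold enrichment of 1.69, 1.79, 1.77 and 2.08 in libraries 1 to 4. In the second, from 3024102 to 3024498, it was 1.99, 1.99, 2.01 and 1.12. In the third, from 3030822 to 3031294, it was 1.84, 1.91, 2.04 and 2.54. Th9 and Th17 values overlapped in the first and the second of these regions, and in the third both Th17 values were above both Th9 values. Lists called with IgG alone or input alone as control are referred to as against IgG only and against input only. Which control was used changed the call in Th17 library 4 most, where 11 of the 13 regions were listed against IgG only and 1 against input only. In the other libraries, 11 to 13 were listed against IgG only and 10 to 12 against input only. Duplicate reads were kept in the peak calling, and no list of problem regions is named in the study's methods; the part of either in these calls was not tested.

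**Figure D1:**
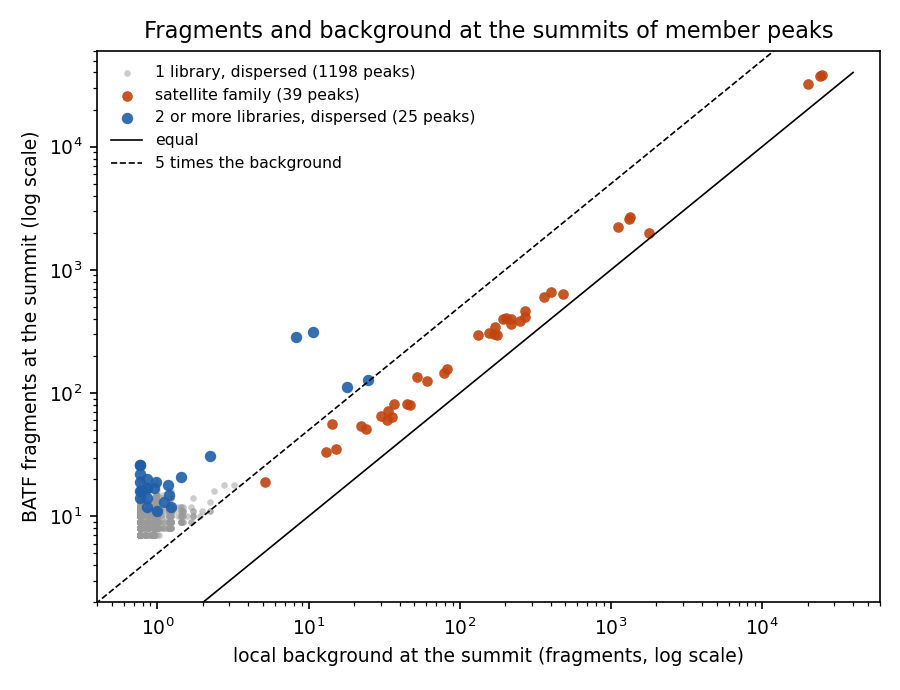
BATF fragments at the summit of each member peak (vertical axis, log scale) against the local background at that summit (horizontal axis, fragments, log scale), as recovered from the fold enrichment and −log10 p, for 1262 of 1270 peaks. Peaks of the satellite family lie between the line of equality and the dashed line at 5 times the background, over the range from 19 to 37846 fragments. Single-library peaks gather at 7 to 20 fragments, mostly above the dashed line. The dispersed recurring peaks also lie above it, and among them the 4 peaks at *Slc18b1* have the most fragments, 112 to 313.

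The dispersed recurring members had higher fold enrichment, between 5.0 and 30.8 over their 25 peaks (median 9.58), on 11 to 313 fragments. In 8 of the 9, the median 32-base word within 50 bp of the summit occurred once in the genome, counting exact matches only. Of the 9, 6 had less than 25% of the window masked, the window being 100 bp to either side of the summit. The summit base of these 6 was masked while most of the sequence around it was not. *Slc18b1* was the exception to the first count.

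The *Slc18b1* region, from 23811522 to 23811713 on chromosome 10, lay in an intron of the gene, which encodes a vesicular polyamine transporter. Its window was masked over its whole length, had a GC content of 65.2%, and its 32-base words occurred between 1 and 29693 times in the genome. A stretch of 52 bases aligned to 7SL RNA, the RNA of the signal recognition particle from which the B1 family of short interspersed elements derives, with 80.8% identity. The fold enrichment was 5.92 and 30.8 in Th9 libraries 1 and 2, and 26.9 and 5.0 in Th17 libraries 3 and 4, so libraries of the same cell type differed more than the cell types did. The summit held 112, 283, 313 and 128 fragments in libraries 1 to 4. The background differed between the controls. Against input only it was 1.67, 2.0, 1.37 and 5.08 fragments, with fold enrichments of 42.3, 94.6, 133 and 21.2. Against IgG only the region was listed in 2 of the 4 libraries, with a background of 16.4 fragments in Th9 library 2 and 22.0 in Th17 library 3 and fold enrichments of 16.3 and 13.7. The background was thus higher with IgG than with input in both libraries that allow the comparison, and the part of antibody-independent capture in this peak was not tested.

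The member called in all 4 libraries beside *Slc18b1* and the satellite regions lay in *St8sia4*, which encodes a polysialyltransferase. It ran from 95590173 to 95590522 on chromosome 1, with 22.9% of its window masked. Its fold enrichment was 5.81 and 7.30 in Th9 libraries 1 and 2, and 9.58 and 9.73 in Th17 libraries 3 and 4. Both Th17 values were above both Th9 values, but levels are not scaled between libraries and no test was made. The window held 6 AP-1 arms and 4 heptamers 1 base away from the consensus, at −46, −33, −25 and −13 bp from the summit on the genome's plus strand.

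Of the others, 3 were called in Th9 library 1 and in both Th17 libraries. *Med15* encodes a subunit of the Mediator complex, and the region in its intron, from 17694884 to 17695202 on chromosome 16, had a fold enrichment of 9.91 in Th9 library 1 and of 15.2 and 9.73 in Th17 libraries 3 and 4. Against input only it was also listed in Th9 library 2, at 9.60. The region nearest to *Gpr15*, a chemoattractant receptor that directs T cells to the large intestine, ran from 58715028 to 58715343 on the same chromosome, 3660 bp downstream of the start site and between genes. Its fold enrichment was 8.75 in Th9 library 1 and 15.2 and 8.11 in Th17 libraries 3 and 4. Its summit was the first base of CGAGTCA, which is 1 base from the AP-1 consensus, and TCATTTC, the reverse complement of the joint IRF and bZIP motif GAAATGA, began 4 bp to the right, as its printed window shows. The third lay in an intron of *Mgat5*, which encodes the enzyme that starts a branch on N-glycans, from 127344964 to 127345210 on chromosome 1, with 6.03, 11.3 and 6.65 in libraries 1, 3 and 4. In each of the 3 regions Th17 library 3 was highest. Th17 library 4 was below Th9 library 1 at *Med15* and *Gpr15* and above it at *Mgat5*.

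Regions called in both libraries of 1 cell type and in neither of the other numbered 2 for Th17 cells and 0 for Th9 cells. Of the 1228 members, 21 were called in 2 or more libraries and 19 in both cell types. Among all 5873 merged regions these numbers were 278 and 210. The peak lists of Th9 library 2 and Th17 library 4 were short, which limits both counts. The counts of 2 and 0 therefore do not compare the cell types, and no test was made. The region 4506 bp upstream of *Trib2*, which encodes a pseudokinase, ran from 15821153 to 15821466 on chromosome 12 and had 13 and 11.3 in Th17 libraries 3 and 4, with a STAT consensus (TTC, any 3 bases, GAA) 12 bp to the right of the summit. The region in an intron of *1700123O12Rik*, from 10610858 to 10611102 on chromosome 4, had 8.47 and 7.02. A site without a peak in a Th9 library was below the threshold there and is not shown to be unbound. The remaining 2 regions joined 1 library of each cell type. *Gm19585*, from 52076738 to 52077065 on chromosome 17, had 10.1 in Th9 library 1 and 9.60 in Th17 library 3, and *Vmn2r99*, from 19266336 to 19266570 on the same chromosome, had 9.06 in Th9 library 2 and 9.22 in Th17 library 3.

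**Figure D2:**
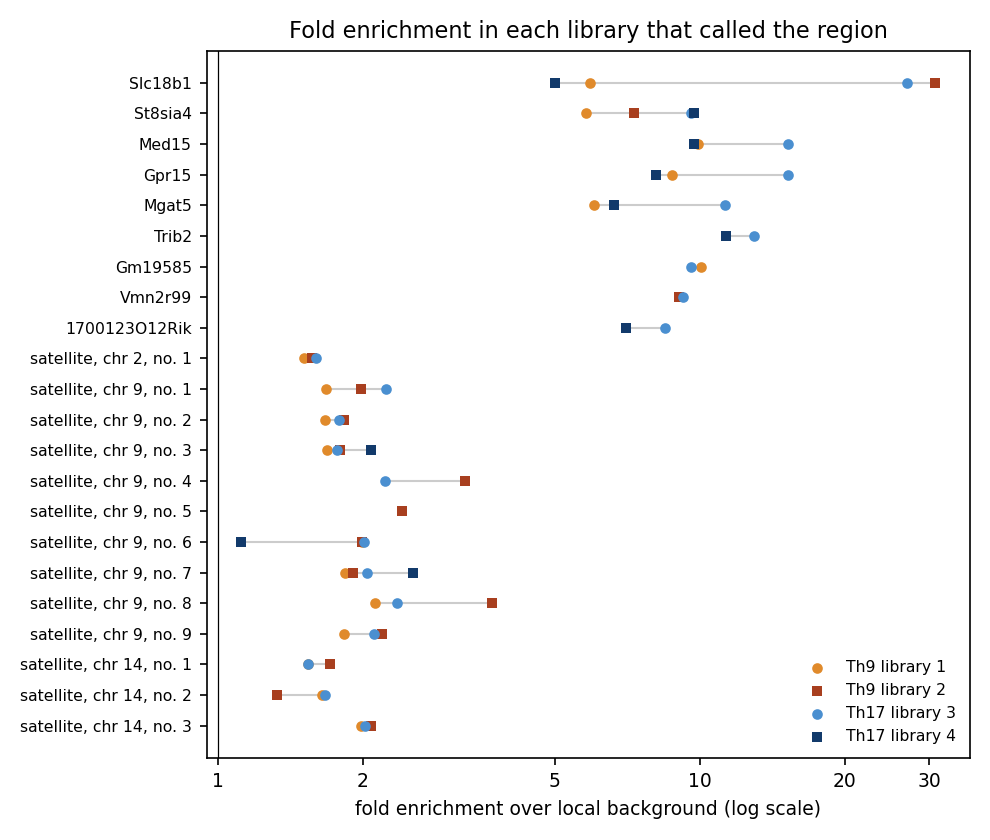
Fold enrichment over local background (log scale) of the 9 dispersed recurring members, named by nearest gene, and of the 13 members of the satellite family, numbered by position on each chromosome. Each point is 1 BATF library that called the region against input and IgG together. Dispersed members lie between 5.0 and 30.8 and satellite members between 1.12 and 3.71, so the 2 kinds do not overlap.

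Recurrence in 2 or more libraries was lower in the members than in 2 other classes of distal regions. Called in 2 or more libraries were 21 of 1228 members (1.71%, 1.06 to 2.60%), against a background of 4.73% of all 5873 merged regions. Called in both Th9 and Th17 cells were 19 members, or 1.55%, against 3.58% of all regions. Called in all 4 libraries were 5 members, or 0.407%, which was near the 0.409% of all regions. In the distal regions without AP-1 whose summit was not in a repeat, 111 of 3382 recurred (3.28%), and members minus this class was −1.57 percentage points (Fisher's exact test, two-sided, adjusted p = 0.00698 over 2 comparisons). At stricter cuts the share was higher in the members. In 3 or more libraries there were 16 members and 20 regions of this class, beside 83 of all regions. In all 4 there were 5 members and 6 regions of this class (0.177%). The satellite family held 11 of these 16 members and 3 of these 5, and no test was made at these cuts. In the distal repeat-derived regions that did hold the AP-1 consensus, 7 of 114 recurred (6.14%), a difference of −4.43 points (Fisher's exact test, adjusted p = 0.00698). Regions are not replicates and neighbours share sequence, so these p-values describe the regions of 4 libraries only.

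The satellite family and the strength of the peaks both moved this comparison. Without the satellite family, 9 of 1215 members recurred (0.741%, 0.339 to 1.40%), and the difference was −2.54 points from the non-repeat class (Fisher's exact test, adjusted p = 3.15e-07) and −5.40 points from the repeat class with AP-1 (adjusted p = 0.00017). That family was picked through a member called in all 4 libraries, held 12 of the 21 recurring members and was taken from the members only. The larger differences follow in part from this choice, so their p-values do not test the members as a class. Weak peaks made up more of the members: 24.5% had a −log10 q of at least 5, against 32.6% of the non-repeat class. Among regions whose strongest peak had a −log10 q of at least 8, 18 of 68 members (26.5%) and 86 of 360 non-repeat regions (23.9%) recurred, and without the satellite family 9 of 59 members did (15.3%, 7.22 to 27.0%), a difference from 23.9% that was not past the threshold (p = 0.179, Fisher's exact test, unadjusted). Below a −log10 q of 5, recurrence was rare in both classes, with 2 of 371 members and 2 of 861 non-repeat regions between 2 and 3, and 0 of 556 and 3 of 1420 between 3 and 5. Between 5 and 8, 1 of 233 members (0.429%) and 20 of 741 non-repeat regions (2.70%) recurred (p = 0.0375, Fisher's exact test, unadjusted). The 2 recurring members between 2 and 3 and the 1 between 5 and 8 were satellite regions. The strongest peaks of the 9 dispersed recurring members all had a −log10 q of at least 9.30. The difference from the non-repeat class over all regions lost its call when Th9 library 1 or Th17 library 4 was left out (−0.191 and −0.761 points) and was 0.00166 points without Th17 library 3. The difference from the repeat class with AP-1 also lost its call without Th9 library 1 (−2.0 points, adjusted p = 0.559, Fisher's exact test) and without Th17 library 4 (−2.79 points, adjusted p = 0.108). Without the satellite family the difference from the non-repeat class was −2.66 to −1.56 points, that from the repeat class with AP-1 was −16.4 to −3.37 points, and both stayed past the threshold with each library left out. These values rest on the same choice of family.

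Recurrence was highest where least of the window was masked. Of the members outside the satellite family with under 25% of the window masked, 6 of 185 recurred (3.24%, 1.20 to 6.93%), close to the 3.28% of the non-repeat class. With 25 to 50% masked it was 1 of 279, with 50 to 75% 1 of 248, and with 75% or more 1 of 503 (0.199%, 0.005 to 1.10%), which was *Slc18b1*. By the copy number of exact words, 8 of 919 members with 1 copy recurred (0.871%) and 0 of 114 with over 1 and under 10 copies. With 10 to under 100 copies it was 1 of 85 (1.18%), and with at least 100 copies 0 of 97, with an exact upper limit of 3.73%. The bins were chosen after the values were seen, and no test was made on them.

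**Figure D3:**
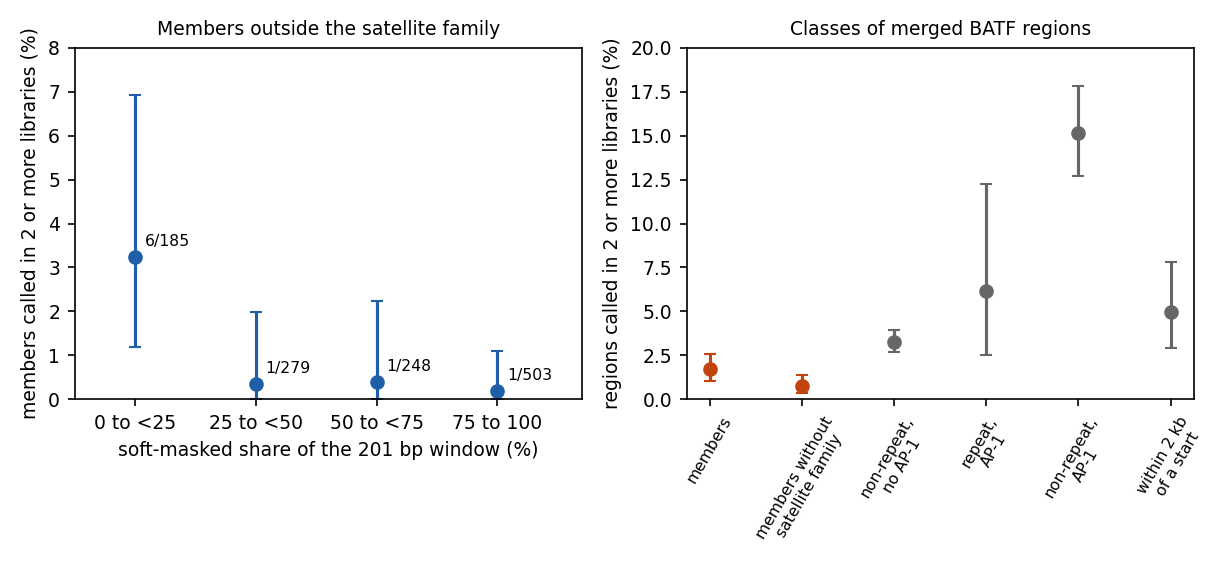
Left, percentage of members outside the satellite family called in 2 or more libraries, by the soft-masked share of the window, with counts beside the points. Right, the same percentage in all members, in members without the satellite family and in the other classes of merged regions. Bars are exact 95% binomial intervals. The lowest-masked members sit at 3.24% and the highest-masked at 0.199%.

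The other 1206 members outside the satellite family were called in 1 library each, with fold enrichments of 3.72 to 11.9 (median 5.08). Th17 library 3 alone called 816 members and Th9 library 1 alone 359, while Th9 library 2 alone called 21 and Th17 library 4 alone 10, in the order of the length of their peak lists. Of their peaks, 1198 had whole fragment numbers recovered, and they stood on 7 to 20 fragments (median 9), with 906 of them (75.6%) on 10 or fewer. None of the 1206 had a peak in another library when the lists against IgG only or input only were searched too (0 of 1206, with an exact upper limit of 0.305%), compared with 10 of 3271 single-library regions of the non-repeat class (0.306%). The strongest single-library members were near *Aknad1* and *Cemip2*, each with a −log10 q of 16.9 and a fold enrichment of 11.9 in Th17 library 3. The next, in an intron of *Rock2*, had 15.6 and 11.3 in the same library. These 3 were chosen after their values were seen.

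The share of peaks that were members varied more within each cell type than between the cell types. They were 22.0% (20.1 to 24.0%) and 15.4% (11 to 20.5%) of the peaks in Th9 libraries 1 and 2, and 20.4% (19.1 to 21.6%) and 10.1% (6.25 to 15.1%) in Th17 libraries 3 and 4. The mean was 18.7 ± 4.70% in Th9 cells and 15.2 ± 7.29% in Th17 cells (SD, n = 2 libraries each), a difference (Th17 minus Th9) of −3.47 points that was smaller than the spread within Th17 cells (exact permutation test, two-sided, p = 0.667, where 0.333 is the smallest p that 6 splits allow). The short lists of libraries 2 and 4 had the lower share within each cell type.

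The fold enrichment of member peaks was lower than that of the non-repeat class without AP-1 in every library. The medians were 5.36 and 5.54 in Th9 library 1, 4.95 and 6.25 in Th9 library 2, 5.08 and 5.64 in Th17 library 3, and 5.94 and 7.02 in Th17 library 4, with the members first. The mean difference was −0.779 ± 0.510 (SD, n = 4 libraries), lower in 4 of 4 (exact sign-flip test, p = 0.125, the smallest that 4 libraries allow). Low satellite peaks were 13 of the 37 member peaks in Th9 library 2 and 3 of the 20 in Th17 library 4. Without the satellite family the mean difference was −0.682 (exact sign-flip test, p = 0.125). The lists against a single control gave close shares in libraries 1 to 3. Among member peaks, 66.8%, 64.9%, 64.9% and 50% in libraries 1 to 4 were listed both against IgG only and against input only, compared with 67.6%, 65.0%, 67.5% and 71.1% in the non-repeat class. Th17 library 4 had the widest gap, on 20 member peaks.

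The exact words around most summits occurred once in the genome in spite of the mask. Only exact matches were counted, so similar copies that differ in sequence do not add to the number. In 920 of the 1228 (74.9%) the median 32-base word around the summit occurred once in the genome, compared with 99.0% in the non-repeat class. At least 10 copies were found for 192 members and at least 100 for 97, up to 23030 copies. The median masked share of the window was 66.2%, and the GC content was 38.3%, compared with 41.3% in the non-repeat class. Tandem repeats of units of 1 to 6 bases covered 20% or more of the window in 12 members (0.977%), compared with 0.355% of the non-repeat class and 0.477% of all merged regions, and these shares were not tested.

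Similar members were joined into families where windows aligned with at least 80% identity over at least 80 bases. Of the members, 665 (54.2%) had no similar member, and 563 fell into 19 families. The largest family held 492 members linked in chains, and its member of largest −log10 q was *Slc18b1*. The satellite family of 13 was next. The third held 11 members and the fourth 10, led by regions near *Atp6v0c-ps2* (fold enrichment 8.54, −log10 q 9.59) and *4930402F11Rik* (6.78 and 6.0), and 0 members of either recurred. Families were therefore also built around the member with the most similar members, a choice made after seeing this chain. The largest of these held 49 members on 18 chromosomes, with 1 recurring, and 19 of the 22 members that aligned to 7SL RNA over at least 50 bases were among them. The second held 38 and the third 28, with a median of 4.25 and 14.2 genome copies and 0 recurring, and the sixth held 20, with *Vmn2r99* as its 1 recurring member. The satellite family was the one among the 12 largest in which most members recurred, 12 of 13 (92.3%, 64.0 to 99.8%). The sequences within 50 bp of the summits of the central members of the 3 largest of these families show how different the repeats were.
Family of 49, near Gadd45a, chr6:67143118-67143218: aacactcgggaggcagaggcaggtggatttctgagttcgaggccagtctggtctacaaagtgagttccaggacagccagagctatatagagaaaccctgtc
Family of 38, near Cxcl12, chr6:117211685-117211785: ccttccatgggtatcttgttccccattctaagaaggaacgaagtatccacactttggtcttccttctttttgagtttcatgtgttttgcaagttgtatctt
Family of 28, near Mir6350, chr1:48156634-48156734: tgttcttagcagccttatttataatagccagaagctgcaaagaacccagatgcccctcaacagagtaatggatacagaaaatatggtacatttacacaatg

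Members were spread over all 21 chromosomes, and apart from the satellite they rarely stacked. Within a gap of 10 kb, 1191 members were alone and 37 fell into 14 stacks, 3 of them with 3 or more members. The third of these lay on chromosome 2 from 123150742 to 123154988, with *Sqor* as the nearest gene, and its 3 members, with fold enrichments of 4.53 to 5.54, were each called in 1 library. Per 10 Mb of soft-masked sequence there were 12.7 members in all, and 11.1 to 20.4 on the single chromosomes other than Y. Chromosomes 16 and 17 were highest, with 20.4 (15.7 to 26, exact Poisson interval) and 19.2 (14.6 to 24.7), and chromosome X had 11.4 (9.12 to 14.0), on 87 members. Chromosome Y held 1 member in 84.9 Mb of masked sequence, which lowers the value over all chromosomes, and it held 0 regions of the non-repeat class. Recurring members outside the satellite family were on chromosomes 1, 4, 10, 12, 16 and 17. Of the members, 67.5% (64.8 to 70.1%) lay between genes, 31.6% in introns and 11 in exons, and the non-repeat class had 51.8% (50.1 to 53.5%) between genes. These differences were not tested.

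**Figure D4:**
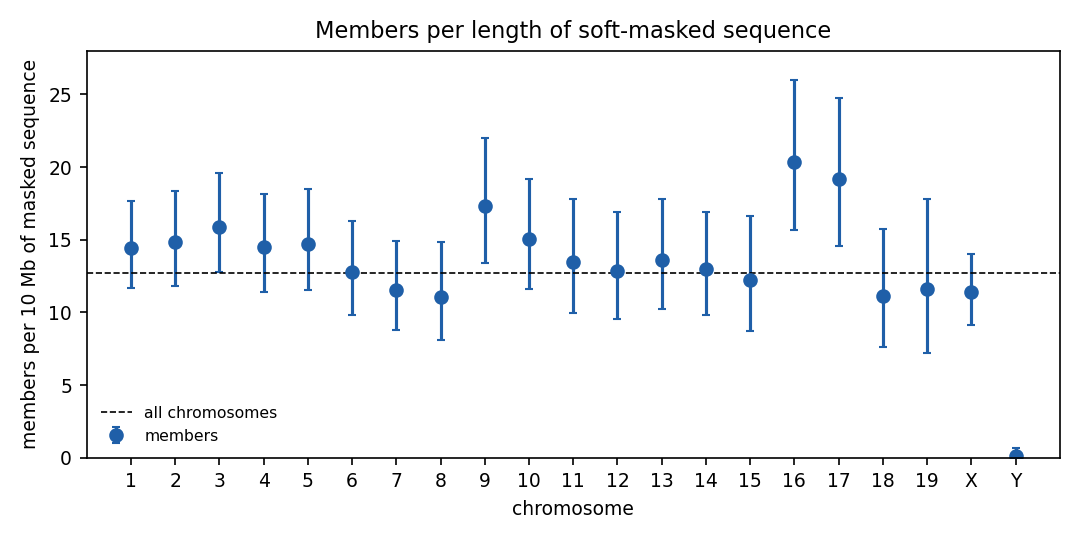
Members per 10 Mb of soft-masked sequence on each chromosome (points, with exact 95% Poisson intervals that cover counting error only). The dashed line is the value over all chromosomes including Y, 12.7. Most chromosomes lie above the line, the whole intervals of chromosomes 3, 9, 16 and 17 do so, and Y lies near 0. Y lowers the line. The median over chromosomes was 13.5, which is above the lower limits of chromosomes 3 (12.8) and 9 (13.4). Chromosome 9 includes the stack of 9 satellite members, which are not independent counts.

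Sites related to AP-1 and to BATF with IRF were less frequent in the members than in the non-repeat class, although the rule had removed the exact consensus from both. A heptamer with 1 mismatch to TGASTCA was in 510 members (41.5%, 38.8 to 44.3%) and in 53.4% of the non-repeat class (Fisher's exact test, two-sided, adjusted p = 1.29e-11 over 11 motifs). A heptamer with up to 1 mismatch was in 43.7% of windows of the same length centred 2000 bp to either side of the members. In such flanks of the non-repeat class it was in 45.2%. The share in all merged regions was 58.4%. All of these shares also count exact sites, which the rule had removed from both classes, so they cannot be set directly against 41.5% or 53.4%. GAAATGA, in which an IRF motif runs into a bZIP motif, was in 69 members (5.62%) and 9.46% of the non-repeat class (Fisher's exact test, adjusted p = 0.000108). It was in 4.80% of the flanks of the members, 5.40% of those of the non-repeat class and 9.50% of all merged regions. The composite TTTC, any 4 bases, TGACT was in 4 members (0.326%) and 1.83% of the non-repeat class (Fisher's exact test, adjusted p = 0.000113). It was in 0.326% of the flanks of the members, 0.355% of those of the non-repeat class and 1.69% of all merged regions. Both strands were searched, and the first and the last of these motifs can overlap. Regions are not replicates, and 563 members (45.8%) fell into families of similar sequence. The motif p-values therefore describe the regions of 4 libraries only. A run of 12 bases of CA repeat was the 1 motif past the threshold that was found more often, in 14 members (1.14%) and 0.414% of the non-repeat class (Fisher's exact test, adjusted p = 0.0239). It was in 2.81% of the flanks of the members and 3.30% of those of the non-repeat class. The call for the CA run was lost without Th9 library 1 (adjusted p = 0.0548, Fisher's exact test) and without Th17 library 3 (adjusted p = 0.225). The other 7 motifs, which were CRE (TGAC then GTCA), IRF (GAAA, any 2 bases, GAAA), STAT (TTC, any 3 bases, GAA), ETS (CAGG then AAGT), RUNX (TGTGGTT), ROR (TAGGTCA) and CTCF core motifs, did not pass the threshold. STAT sites were in 10.1% of members and 8.25% of the non-repeat class (Fisher's exact test, adjusted p = 0.0948). CRE was in 0 members, with an exact upper limit of 0.300%.

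Outside the satellite family, AP-1-like sites were more frequent in strong than in weak members. The heptamer with 1 mismatch was in 36.4% of 368 members with a −log10 q between 2 and 3, 42.8% of 556 between 3 and 5, 44.4% of 232 between 5 and 8 and 59.3% (45.7 to 71.9%) of 59 at 8 or more. The non-repeat class went from 49.4% to 70.8% over the same steps. Among the 9 dispersed recurring members, 7 held the heptamer with 1 mismatch, 9 an AP-1 arm and 3 GAAATGA. Among single-library members outside the satellite family, 41.7% held the heptamer with 1 mismatch, 62.5% (59.7 to 65.3%) an arm and 5.39% GAAATGA. In the non-repeat class, 79.3% of the recurring regions held the heptamer with 1 mismatch and 97.3% an arm, compared with 52.5% and 68.4% of those in 1 library. In the satellite family 0 of 13 held the heptamer with 1 mismatch and 1 of 13 an arm. The arm was added after the windows had been read, and no test was made on these groups. A match is a description of letters and says nothing on binding by BATF.

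**Figure D5:**
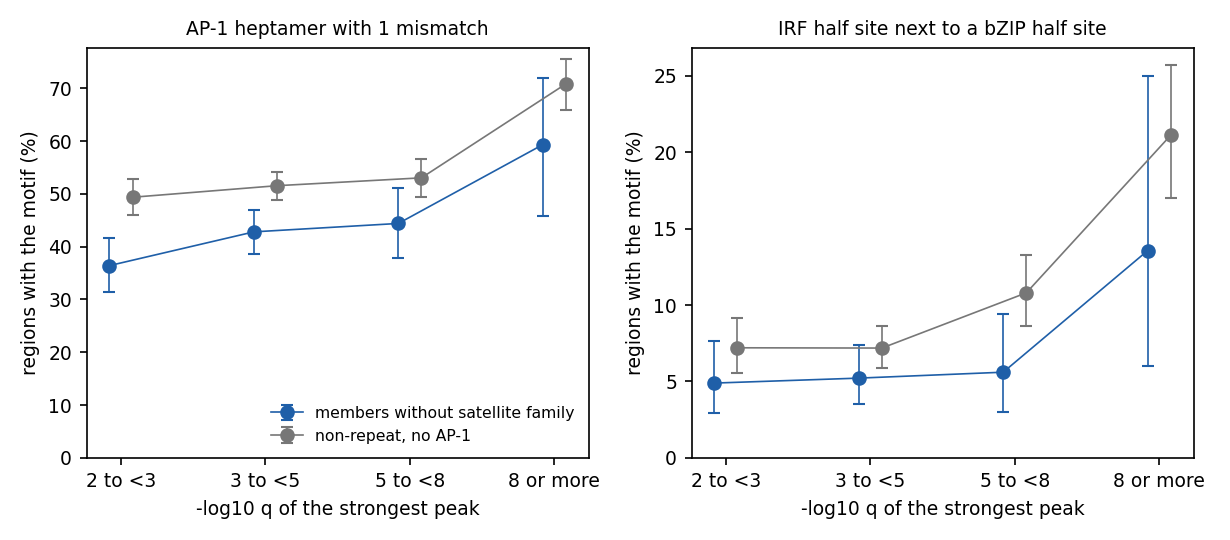
Percentage of regions with an AP-1 heptamer of 1 mismatch (left) and with GAAATGA, a joint IRF and bZIP motif (right), within 100 bp of the summit, by the −log10 q of the strongest peak, in members without the satellite family and in non-repeat distal regions without AP-1. Bars are exact 95% binomial intervals. The left panel runs from 36.4% to 59.3% in members and from 49.4% to 70.8% in the non-repeat class.

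A list of 68 genes of T helper biology holds cytokines, their receptors and lineage regulators. One of them was the nearest gene of 5 members (0.407%, 0.132 to 0.948%), of 25 non-repeat regions without AP-1 (0.739%, 0.479 to 1.09%) and of 60 merged regions in all (1.02%). The intervals of the first and second overlap, and no test was made. None of the 5 members was called in 2 libraries. They are named because they are few. The member near *Il6st*, the shared receptor chain for IL-6, had a fold enrichment of 8.47 in Th17 library 3, 5386 bp upstream of the start site, and that near *Maf*, a regulator of IL-10 and IL-21, had 4.52 in the same library. In Th9 library 1, the member in an intron of *Prdm1*, which encodes Blimp-1, had 7.59, that in an intron of *Runx1* had 7.03, and that near *Il22* had 6.54, 26114 bp upstream. The nearest gene is a label of position and was not tested as a target.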

How the data were processed

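The deposited BATF peak lists were analysed, 3 for each of 4 libraries, 12 in all. According to the study's methods and the submitters' processing notes (Trim Galore 0.4.3, Bowtie2, MACS2 2.1.0, mm10), the authors called peaks of each library separately, against input, IgG or both, keeping duplicates. Per peak, the authors deposited the fold enrichment (a ratio of fragments to local background) and −log10 p and −log10 q values. No depth is given in the lists, and the number of peaks limits the precision. Intervals are exact (Clopper-Pearson, or Poisson for densities) 95% intervals and cover counting error only. Nothing states that libraries of a cell type came from separate cultures.

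Members were found by the summit base's case in the RefSeq GRCm38 FASTA and by curated start sites of annotation release 108.20200622. The members, lists and motifs were chosen with earlier results of these data known. Fragments k and background b were solved from fold enrichment = (k + 1)/(b + 1) and −log10 p = −log10 P(X > k) for a Poisson mean b. A whole k within 0.01 of the −log10 p was found in 99.6 to 100% of peaks of up to 50 fragments per library, and larger k are approximate. Families came from blastn 2.17.0 and GENCODE M21 7SL transcripts, and copies from 32-base words of the whole genome. The tool behind the soft mask is not given in the sources used here. Tests were Fisher's exact test between classes of regions, with Benjamini-Hochberg adjustment, and exact permutation and sign-flip tests over libraries. Named regions were members in all 4 libraries, the 5 of largest mean fold enrichment in 3 or more libraries, the 5 of largest −log10 q, the 3 largest stacks, those called in both libraries of 1 cell type only, the leaders of the 4 largest families, and T helper genes called in 2 or more libraries. The remaining recurring members were named afterwards. Calculations were tested on simulated data. Versions were scipy 1.17.1, networkx 3.6.1, pysam 0.24.0, numpy 2.4.6, matplotlib 3.10.9 and pandas 2.3.3 under Python 3.11.15.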

Additional observations from a re-analysis of the deposited data

How the results depend on the processing

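No paired analysis was possible because no replicate number is shared by BATF libraries of the 2 cell types. The number of members was 301 with a minimum −log10 q of 5, 718 with AP-1 sites of 1 mismatch also left out, and 410 to 1220 with each library left out. The recurring share was 5.65% with a minimum −log10 q of 5, 1.02% with 1 region per 10 kb, 0.741% without the satellite family and 1.58 to 3.41% with each library left out. The difference in recurrence from the non-repeat class was −1.35 points with a minimum −log10 q of 5, 0.491 with 1-mismatch sites left out, 2.58 for regions of −log10 q 8 or more and −8.63 for those without the satellite family. With each library left out it was −1.06 to 0.00166, the upper value without Th17 library 3, and −2.66 to −1.56 if the satellite family was left out as well. Against the repeat class with AP-1 the same settings gave −4.96, −0.294, 3.14 and −8.08 points, and −13.7 to −2.0 and −16.4 to −3.37 with each library left out. None of the settings with a minimum −log10 q, nor 1-mismatch sites, kept either call. Th17 minus Th9 was −9.90 to 1.44 points with each library left out, positive without Th17 library 4. Motifs past the threshold numbered 7 with a repeat defined as 50% masked, and 0 with 1-mismatch sites left out (3 at an unadjusted p under 0.05). The lower fold enrichment kept its direction under 13 alternatives, from −1.82 to −0.583. The CA-run difference lost its call in 4 of 13 alternatives. The 2 settings without the satellite family or by −log10 q of 8, and their combinations, were added after seeing the data. The causes of these changes were not tested.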
